A study of Danio rerio with 8 samples.

Results

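The genes that encode the proteins of the cytosolic ribosome were followed across sorted bone cells and extracellular vesicles of the fractured zebrafish scale. Members were all Ensembl gene IDs whose symbol is rpl or rps followed by a digit, or rpsa, without the rps6k kinases. The rule found 80 IDs among 32057 genes, of which 43 carry an rpl symbol (large subunit) and 37 an rps symbol (small subunit). No ID carried the symbol rpsa, so this gene was not analysed here. One ID, rps19bp1, encodes a protein named for binding Rps19 and not a ribosomal protein, but it is kept among the 37 rps IDs. Rpl7l1, kept among the 43 rpl IDs, is a relative of rpl7 whose yeast counterpart acts in the assembly of the large subunit. The P stalk genes (rplp0, rplp1, rplp2), fau and rack1 do not match the rule and are described as a separate list.

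A cytosolic ribosome is built from ribosomal RNA and 1 copy of most ribosomal proteins, divided into a large subunit, which joins amino acids, and a small subunit, which reads the mRNA. Vertebrate ribosomal protein mRNAs are short, abundant and polyadenylated, and they start with a tract of pyrimidines (the 5' TOP motif) through which their translation is regulated together. Their mRNAs are also common among the RNAs found in extracellular vesicles of cultured cells.

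RNA was measured in 4 fractions from fractured scales of adult zebrafish at 1 day post-fracture (1 dpf). The animals carried the trap:GFP and osterix:mCherry transgenes and are labelled wild type. OB (osteoblasts) were GFP-negative, mCherry-positive, Hoechst-high cells. pOC (precursors of osteoclasts) were GFP-low, mCherry-positive, Hoechst-high cells, and mOC (mature osteoclasts) were GFP-high, Hoechst-high cells. EV were mCherry-positive, Hoechst-low particles. All 4 fractions therefore came from fractured scales that had been dissociated with enzyme, stained with Hoechst and sorted, and no fraction from intact scales was included. The trap enhancer drives GFP and the osterix enhancer drives mCherry, and a cell that has taken up mCherry particles also falls in an mCherry gate. In the study's microscopy, some GFP-low cells held fragments of GFP and looked like phagocytes or osteoblasts, and some of the sorted particles held organelles. Its cytometry found both microvesicles and apoptotic bodies, which form as cells die, among such particles. Very small vesicles such as exosomes could not be separated by the sorter.

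Each fraction had 2 deposited libraries, but both OB libraries held the same values for every gene and were counted as 1, so 7 distinct libraries were compared and no spread within OB could be measured. The study counts 2 biological replicates in a single run of this experiment. Whether the replicates of pOC, mOC and EV came from separate animals is not given in the labels, so the p-values measure the spread between these libraries. The libraries held between 11814593 reads in genes (mOC replicate 2) and 24435509 (pOC replicate 1), and the EV libraries had the fewest genes above 0, 15195 and 14125 against 17348 to 19515 in the cell libraries. Summed osteoblast markers took 3.68% of reads in OB and 0.166 to 1.44% elsewhere. Osteoclast markers took 1.40 and 1.48% in mOC and 0.263 to 0.449% elsewhere, so the labels of OB and mOC stood with their markers. In pOC, osteoblast markers took 1.34 and 1.44% and osteoclast markers 0.418 and 0.449%. Macrophage markers took 0.0552 and 0.0580% in pOC, above all other libraries. The study proposes that the GFP-low fraction held mostly monocytes or macrophages. Values are reads per 1000000 reads in genes (RPM), not scaled by gene length. Where members are ranked by reads or by mean RPM, the rank is therefore not an order of RNA amounts between different genes. Because every value is a share of a library, a lower share and a lower amount of RNA per cell or particle cannot be told apart.

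Ribosomal protein genes took the largest share of reads in EV replicate 2 and the smallest in mOC replicate 1. The members held 3.42% of all reads in genes in OB (exact 95% binomial interval 3.41 to 3.43), 2.90 and 2.98% in pOC replicates 1 and 2, 2.49 and 3.17% in mOC replicates 1 and 2, and 3.42 and 5.06% in EV replicates 1 and 2. The means were 2.94% ± 0.056 in pOC, 2.83% ± 0.480 in mOC and 4.24% ± 1.16 in EV (SD, n = 2 each). The 2 EV libraries differed from each other by 1.48-fold, EV replicate 1 and OB did not differ beyond counting error, and mOC replicate 2 lay above both pOC libraries. Counting intervals, which cover counting error only, were at most 0.02 percentage points wide, so the spread between replicate libraries of EV and mOC was far larger than the counting error. The share in EV replicate 2 was 1.48 times that in OB, and the share in mOC replicate 1 was 0.727 times that in OB.

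**Figure D1:**
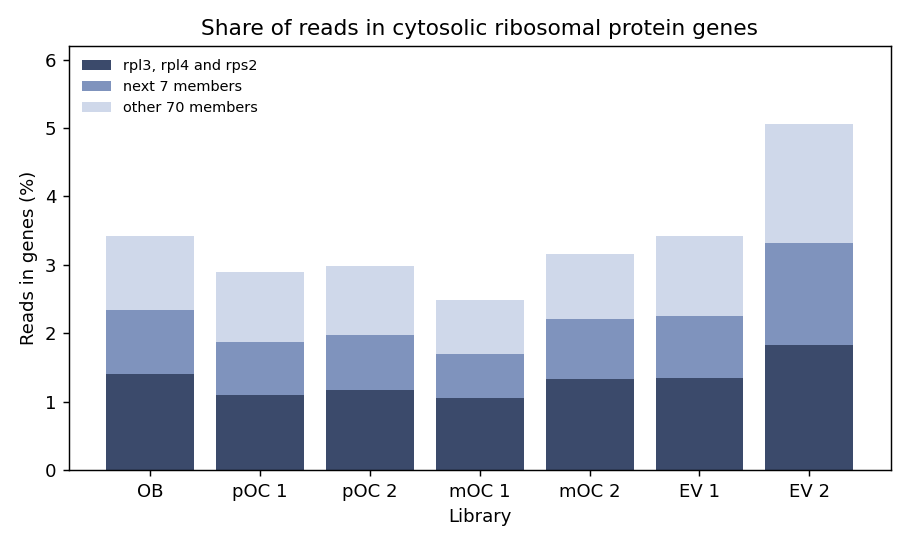
Share of all reads in genes (%) taken by the 80 ribosomal protein genes in each of the 7 libraries (bars, from 0), divided into rpl3, rpl4 and rps2, the next 7 members and the other 70. EV replicate 2 stood at 5.06%, while EV replicate 1 and OB both stood at 3.42% and mOC replicate 1 was lowest at 2.49%.

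In both subunits EV replicate 2 was the highest library and mOC replicate 1 the lowest. The large subunit genes took 2.27% of reads in OB, 1.86 and 1.93% in pOC, 1.64 and 2.09% in mOC and 2.17 and 3.20% in EV. The small subunit genes took 1.15% in OB, 1.04 and 1.05% in pOC, 0.850 and 1.07% in mOC and 1.25 and 1.86% in EV. EV replicate 1 thus lay below OB for the large subunit and above it for the small subunit, with intervals that did not overlap in either case. These intervals cover counting error only. For each subunit the 2 EV libraries lay further apart than EV replicate 1 and OB, so no difference between the subunits can be read from this.

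A few genes held much of the total. Rpl3, a core protein of the large subunit near the site of peptide bond formation, rpl4, which lines the tunnel through which the new chain leaves, and rps2, at the entry of the mRNA channel of the small subunit, together held between 36.3% (EV replicate 2) and 42.4% (mOC replicate 1) of the members' reads. Without these 3 genes, a setting chosen after the data were seen, the other members took 2.01% of reads in OB, 1.80 and 1.81% in pOC, 1.43 and 1.83% in mOC and 2.07 and 3.23% in EV. EV replicate 2 was still the highest library and mOC replicate 1 the lowest.

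Of the 80 members, 76 reached at least 1 RPM in at least 2 libraries and were tested among 14006 genes. The 4 others, rpl26, rpl32, rpl9 and rps11l, stayed at or below 0.42 RPM in every library, where 3 reads correspond to 0.123 to 0.254 RPM. Because the filter keeps genes by their highest libraries, the counts below describe the 76 that passed it and not all members.

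In EV against the mean of OB, pOC and mOC, 75 of 76 members had a log2 fold change above 0, with a median of 0.57, while over all genes tested 43.3% were above 0 and the median was -0.13. Fold changes are differences of log2(RPM + 1), which understates changes of low genes. In limma, 1 member, rpl11, passed an adjusted p of 0.05 as higher, and 0 passed as lower, against 3.53% and 3.43% of all genes. At an unadjusted p under 0.05, 46 members (60.5%) were higher and 1 was lower, against 10.3% and 15.4% of all genes. With edgeR on the recovered reads 0 members were called higher (2.81% of all genes), and with DESeq2 14 were (6.89%). No member passed with a log2 fold change beyond 1, which 3.11% of all genes did as higher and 3.23% as lower. The median was 0.56 for the 40 rpl genes tested and 0.59 for the 36 rps genes tested.

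The call count rested on single libraries. With EV replicate 1 left out, so that replicate 2 alone stood for EV, 53 of 76 members were called higher (8.21% of all genes) and the median was 0.86. With EV replicate 2 left out, 0 were called (6.94% of all genes) and the median was 0.27. The call of rpl11 was also lost with any 1 pOC or mOC library left out. The medians of all genes with an EV library left out are not given here, so these 2 member medians have no background beside them.

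Read library by library, both EV libraries lay above every other library in 51 of 76 members (67.1%), against 9.84% of all genes tested, and below every other library in 1 (1.32%, against 14.1%). EV replicate 2 was the highest library in 71 members (93.4%, against 16.5%), and it lay above EV replicate 1 in 73 members (against 42.4%). EV replicate 1 was above OB in 61 members, against 47.3% of all genes, and EV replicate 2 was above OB in 75, against 40.9%. The median difference from OB was 0.20 in EV replicate 1 and 0.77 in EV replicate 2 on the log2 scale.

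**Figure D2:**
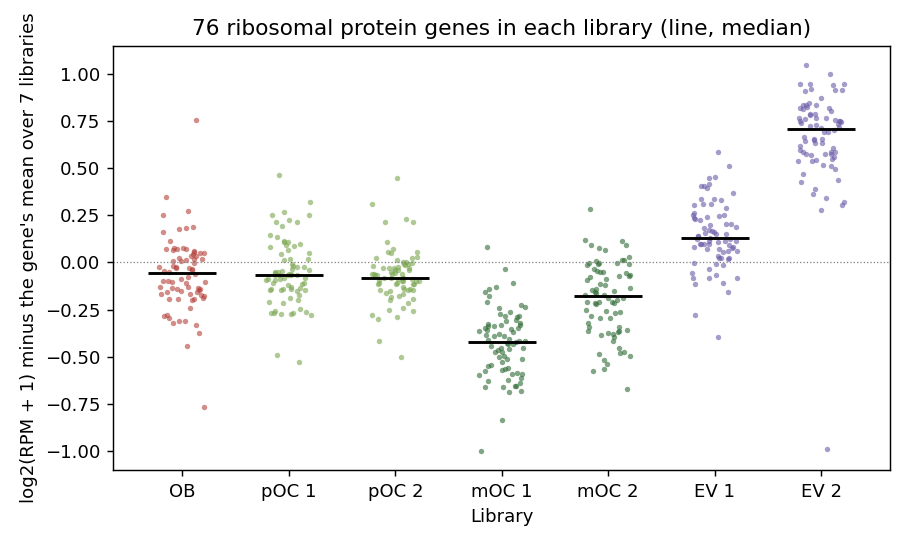
Level of each of the 76 tested members in each library (points), as log2(RPM + 1) minus the gene's own mean over the 7 libraries, with the median of the members as a line. The medians were -0.06 in OB, -0.07 and -0.08 in pOC, -0.42 and -0.18 in mOC, and 0.13 and 0.71 in EV.

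Rpl11 binds rpl5 and 5S ribosomal RNA in the large subunit, and in mammals the free protein inhibits Mdm2. It stood at 298 RPM in OB, 256 and 252 RPM in pOC, 222 and 214 RPM in mOC and 375 and 421 RPM in EV. Both EV libraries were above, and both mOC libraries below, every other library. The log2 fold change in EV was 0.64 (SE 0.15, limma adjusted p = 0.0479), a call that was lost under 11 of 15 alternatives, over which the adjusted p ran from 0.00692 to 1. Its partner rpl5 has 2 IDs. The first (ENSDARG00000020197) stood at 911 RPM in OB, 832 and 830 RPM in pOC, 751 and 935 RPM in mOC and 1042 and 1399 RPM in EV, and its log2 fold change of 0.49 (SE 0.17, adjusted p = 0.126) did not pass.

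The members furthest above the median in EV, among those with a mean of at least 20 RPM, came from both subunits, and none passed the test. Rps28, at the mRNA exit of the small subunit, stood at 38.2 RPM in OB, 44.7 and 37.7 RPM in pOC, 26.3 and 32.5 RPM in mOC and 52.3 and 79.9 RPM in EV. Both EV libraries were above all others, and the log2 fold change of rps28 came to 0.84 (SE 0.26, adjusted p = 0.105). Rpl36, a large subunit protein, stood at 49.3 RPM in OB, 57.5 and 54.2 RPM in pOC, 36.2 and 39.0 RPM in mOC and 69.6 and 98.8 RPM in EV, a log2 fold change of 0.81 (SE 0.23, adjusted p = 0.0801). Rps27a, whose product is made as a fusion with ubiquitin, stood at 31.6 RPM in OB, 32.7 and 33.0 RPM in pOC, 35.3 and 35.9 RPM in mOC and 44.98 and 77.07 RPM in EV. Unlike most members, rps27a was not lowest in mOC, and its log2 fold change in EV was 0.80 (SE 0.27, adjusted p = 0.124).

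The members furthest below the median in EV overlapped with the cells. Rps13, a small subunit protein, stood at 65.7 RPM in OB, 42.3 and 70.4 RPM in pOC, 33.3 and 44.9 RPM in mOC and 48.4 and 66.3 RPM in EV, with a log2 fold change of 0.13 (SE 0.29, adjusted p = 0.828). Rpl3 stood at 6265 RPM in OB, 4849 and 5183 RPM in pOC, 4748 and 6088 RPM in mOC and 5395 and 7107 RPM in EV, a log2 fold change of 0.16 (SE 0.15, adjusted p = 0.552). Rps3, at the mRNA entry of the small subunit, stood at 728 RPM in OB, 602 and 594 RPM in pOC, 481 and 654 RPM in mOC and 592 and 913 RPM in EV, a log2 fold change of 0.23 (SE 0.21, adjusted p = 0.538). For all 3, EV replicate 1 lay below OB.

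The remaining genes of most reads did not pass the test either. Rpl4 stood at 4716 RPM in OB, 3624 and 3835 RPM in pOC, 3577 and 4354 RPM in mOC and 4620 and 6323 RPM in EV, so that EV replicate 1 again lay below OB. Rps2 stood at 3103 RPM in OB, 2540 and 2701 RPM in pOC, 2231 and 2912 RPM in mOC and 3459 and 4925 RPM in EV, with both EV libraries above all others. Their log2 fold changes in EV were 0.40 (SE 0.16, adjusted p = 0.169) and 0.59 (SE 0.18, adjusted p = 0.0947), and rps2 passed under 2 of 15 alternatives. Rps4y2 (ENSDARG00000014690), rpl7a, rps6 (the substrate of S6 kinases), rpl7, rpl8, rpl6 and the first rpl5 ID, which complete the 10 members of most reads, had log2 fold changes between 0.45 and 0.59, and none passed.

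EV replicate 1 differed from OB by gene. Among the 10 members of most reads 5 were above OB and 5 below, with a median difference of 0.00 on the log2 scale, whereas among the other 66 members 56 were above and the median was 0.28. Across the 76 members the difference between EV replicate 1 and OB fell with the mean level (Pearson r = -0.29, Spearman rho = -0.45), a description across genes that share the same 2 libraries and are not independent replicates. For EV replicate 2 the same medians were 0.61 and 0.78, and the relation with the mean level had Pearson r = -0.07 and Spearman rho = -0.35. Both differences use the same single OB library. That library also enters the mean level and the ranking by reads, so part of a fall with level is built in. The same relation over all genes is not given here. In the test of EV against OB, 0 members were called in either direction by limma (2.83% of all genes higher, 2.28% lower), 5 were higher and 1 lower at an unadjusted p under 0.05 (9.02% and 13% of all genes), and edgeR and DESeq2 also called 0 higher (1.73% and 6.47% of all genes). With EV replicate 1 left out, 16 members were called higher (7.53% of all genes), and with EV replicate 2 left out 0 were (6.84%). With a mean of at least 20 RPM, rps27a (0.88), rps15a (0.85) and rpl13a (0.78) were furthest above the median in EV against OB, and rps13 (-0.21), rpl3 (-0.02) and rps3 (0.01) furthest below.

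**Figure D3:**
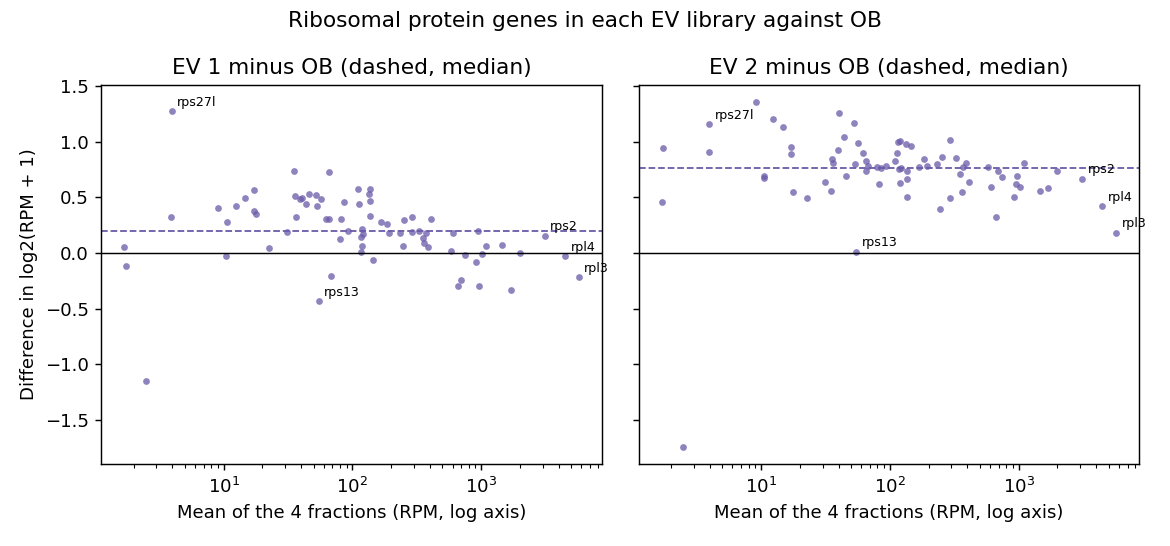
Difference in log2(RPM + 1) between EV replicate 1 and OB (left) and between EV replicate 2 and OB (right) for the 76 members against their mean over the 4 fractions (RPM, log axis), with the median as a dashed line. The medians were 0.20 and 0.77, and 61 and 75 of the members lay above OB.

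In mOC most members had lower values than the mean of the other fractions, but none passed the test. As a summed share, mOC replicate 2 (3.17%) lay above both pOC libraries (2.90 and 2.98%). That mean includes EV, where most members were highest, so the comparisons of mOC and of EV share libraries and are not separate results. Against the mean of OB, pOC and EV, 75 of 76 members had a log2 fold change below 0 and 1 above (1.32%). Over all genes tested, 44.9% were above 0. The median was -0.42 for the members against -0.09 for all genes tested. Both mOC libraries lay below every other library in 37 members (48.7%, against 14.1% of all genes). In limma 0 members were called lower and 0 higher, against 6.79% and 3.97% of all genes, while at an unadjusted p under 0.05 16 members were lower (21.1%, against 14.9%) and 0 higher (against 9.68%). EdgeR called 0 lower (4.26% of all genes) and DESeq2 called 1 (8.52%). The count was 32 with EV replicate 1 left out (14.2% of all genes) and 5 with EV replicate 2 left out (14.2%). The 2 mOC libraries differed: replicate 1 was the lowest library in 55 members (against 13.9%), and replicate 2 lay above replicate 1 in 62 (against 47.1%).

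The members furthest below the median in mOC, with a mean of at least 20 RPM, were rps21, rps14 and rpl27. Rps21, a small subunit protein, stood at 32.04 RPM in OB, 37.2 and 34.9 RPM in pOC, 21.4 and 23.4 RPM in mOC and 46.3 and 58.4 RPM in EV, a log2 fold change in mOC of -0.78 (SE 0.24, adjusted p = 0.0864). Rps14, in the platform of the small subunit, stood at 274 RPM in OB, 267 and 275 RPM in pOC, 187 and 194 RPM in mOC and 313 and 556 RPM in EV, a log2 fold change of -0.72 (SE 0.23, adjusted p = 0.110). Rpl27, a large subunit protein, stood at 90.9 RPM in OB, 86.4 and 89.6 RPM in pOC, 56.0 and 66.1 RPM in mOC and 105 and 157 RPM in EV, a log2 fold change of -0.72 (SE 0.22, adjusted p = 0.0973). In all 3 the mOC libraries lay below and the EV libraries above every other library, and none passed the test.

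At the other end, rpl13a, rpl12 and rpl31 had log2 fold changes near 0 in mOC. Rpl13a, which in mammals also acts outside the ribosome in silencing inflammatory mRNAs, stood at 53.7 RPM in OB, 60.8 and 46.1 RPM in pOC, 64.1 and 62.6 RPM in mOC and 89.8 and 96.1 RPM in EV. Its mOC libraries lay above OB and pOC and below EV, and its log2 fold change in mOC was -0.02 (SE 0.21, adjusted p = 0.973). Rpl12, at the base of the P stalk, stood at 28.8 RPM in OB, 24.1 and 41.1 RPM in pOC, 32.1 and 35.0 RPM in mOC and 48.6 and 42.8 RPM in EV (log2 fold change in mOC -0.05, SE 0.28, adjusted p = 0.946). Rpl31, at the exit of the peptide tunnel, had the smallest spread of the members and stood at 120 RPM in OB, 124 and 142 RPM in pOC, 124 and 133 RPM in mOC and 151 and 171 RPM in EV (log2 fold change in mOC -0.09, SE 0.17, adjusted p = 0.806). Under quantile normalization, trimmed mean of M-values (TMM) scaling, edgeR and DESeq2 the small mOC values of these 3 genes lay above 0.

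Against pOC alone, the median of the members in mOC was -0.24, against -0.15 for all genes tested. Of the 76 members, 64 were below 0 and 12 above (15.8%), while 41.4% of all genes tested were above 0. In limma 0 members were called higher or lower, against 0.857% and 3.77% of all genes. Rpl7l1, with a mean under 20 RPM, had the lowest log2 fold change (-0.91). Among members with a mean of at least 20 RPM, rps21 (log2 fold change -0.67, SE 0.28, adjusted p = 0.280), rpl37 (-0.61, SE 0.34, adjusted p = 0.448) and the rps26 ID ENSDARG00000037071 (-0.57, SE 0.29, adjusted p = 0.394) were furthest below, and rpl13a (0.26, SE 0.25, adjusted p = 0.707) was furthest above.

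OB and pOC stood near the middle. The median was -0.07 in OB and -0.06 in pOC, each against the mean of the other fractions, while the medians over all genes were 0.11 in both. In limma 0 members were called in OB (2.12% of all genes higher, 2.18% lower) and 0 in pOC (0.228% higher, 0.0143% lower). OB was the lowest library in 5 members, rpl31, rps27.2, rps27a, rps27l and rps19bp1 (6.58%, against 13.7% of all genes), and the highest in 1 (1.32%, against 21.7%). Furthest from the median in OB, again with a mean of at least 20 RPM, were rps13 (log2 fold change 0.41), rpl7a (0.29) and rpl6 (0.22) above and rps15a (-0.38), rps27.2 (-0.36) and rps27a (-0.36) below. In pOC, with the same limit, they included rps27.2 (0.21) and rps23 (0.16) above and rpl13a (-0.36), rpl4 (-0.32) and rps4y2 (-0.31) below.

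The spread of the members was described by their coefficient of variation over the 7 libraries. It had a median of 29.5%, with quartiles of 25.7 and 34.3%, against 54.9% over all genes tested, whose levels differ from those of the members. Rpl31 (13.3%), rpl3 (15.2%) and rps27.2 (17.2%) had the lowest values. Rps12, rps15 and rpl39 were tested but reached no more than 2.58, 3.62 and 6.39 RPM.

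Several ribosomal proteins are represented by more than 1 ID, and reads of near-identical copies may be divided between them in a way the counting sets. Rpl7l1, a relative of rpl7 whose yeast counterpart acts in the assembly of the large subunit, had the lowest log2 fold change of the members in mOC. It stood at 16.1 RPM in OB, 19.3 and 14.5 RPM in pOC, 7.42 and 9.56 RPM in mOC and 24.3 and 30.6 RPM in EV. Its log2 fold change in mOC was -1.12 (SE 0.31, limma adjusted p = 0.0655), and it passed under 5 of 15 alternatives. Rpl7l1 held 0.903 and 0.965% of the reads of rpl7 and rpl7l1 in mOC, against 1.48% in OB, 1.93 and 1.65% in pOC and 2.12 and 1.61% in EV, and the mOC intervals did not overlap the others.

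In the rps27 family, rps27.2 held 36.3 and 37.5% of the family's reads in EV, against 41.3% in OB, 47.9 and 43.1% in pOC and 42.9 and 46.1% in mOC. Rps27.2 stood at 66.8 RPM in OB, 104 and 78.4 RPM in pOC, 71.1 and 83.1 RPM in mOC and 82.9 and 103 RPM in EV, while rps27.1 stood at 92.9 RPM in OB, 107 and 99.9 RPM in pOC, 90.9 and 94.5 RPM in mOC and 139 and 166 RPM in EV. The EV libraries were thus above all others for rps27.1 and overlapped pOC and mOC for rps27.2. Rps27l, which p53 activates in mammals, stood at 1.94 RPM in OB and between 2.88 and 6.12 RPM in the other libraries. The 2 IDs of rps26 and of rpl5, and rpl22 with rpl22l1, kept closer shares: the IDs ENSDARG00000037071 and ENSDARG00000020197 and rpl22l1 held 28.6 to 34.2%, 71.1 to 74.6% and 43.4 to 49.0% of their family's reads.

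**Figure D4:**
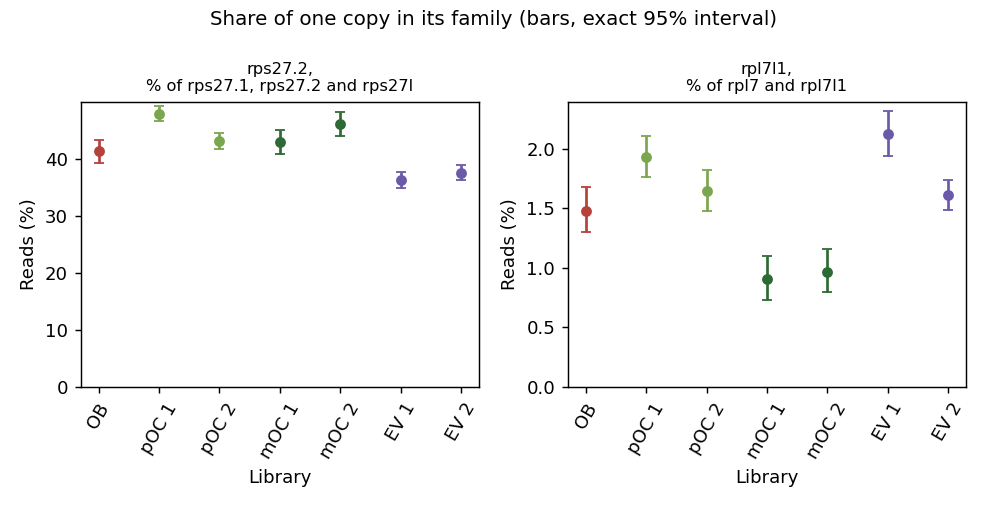
Reads of 1 gene as a share (%) of the reads of its family in each library, for rps27.2 and rpl7l1, with exact 95% binomial intervals as bars. Rps27.2 held 36.3 and 37.5% in EV and rpl7l1 held 0.903 and 0.965% in mOC, each below the other libraries.

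Genes whose products sit on the ribosome but fall outside the rule were also highest in EV replicate 2 and lowest in mOC replicate 1 as a sum. In the list of rplp0, rplp1, rplp2, rplp2l, fau and rack1, the P stalk proteins recruit elongation factors, fau encodes a fusion of a ribosomal protein with a ubiquitin-like protein, and rack1 is a scaffold of the small subunit. Both EV libraries lay above all others in 5 of 6 (9.84% of all genes), and both mOC libraries below all others in 4 of 6 (14.1%). The medians were 0.66 in EV and -0.57 in mOC, against -0.13 and -0.09 over all genes. Of the 6, 1 was higher in EV (16.7%, against 3.53% of all genes) and 1 lower in mOC (16.7%, against 6.79%), in both cases rplp2. It stood at 34.5 RPM in OB, 45.2 and 48.9 RPM in pOC, 23.0 and 26.0 RPM in mOC and 61.6 and 87.3 RPM in EV, with log2 fold changes of 1.08 (SE 0.24, adjusted p = 0.0449) in EV and -0.98 (SE 0.24, adjusted p = 0.0451) in mOC. These calls were lost under 10 and 9 of 15 alternatives.

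Few of the factors that work with the ribosome were called. Over all genes, 3.53% were higher and 3.43% lower in EV and 3.97% higher and 6.79% lower in mOC. Of 11 elongation factor genes tested, 0 were called in EV and 1 in mOC (9.09%): eif5a2, which helps the ribosome past difficult sequences, was higher in mOC, at 779 and 727 RPM against 452 to 548 RPM elsewhere (log2 fold change 0.58, SE 0.14, adjusted p = 0.0395, lost under 6 of 15 alternatives). The elongation factors summed to 7.63% of reads in OB, 6.25 and 6.42% in pOC, 7.30 and 7.46% in mOC and 7.25 and 7.33% in EV. As a sum, the EV libraries thus lay within the range of the cells. By gene, the median log2 fold change of the elongation factors in EV was 0.29, against -0.13 over all genes. Both EV libraries lay above all others in 2 of the 11, against 9.84% of all genes. Of 41 initiation factor genes, 2 were called higher in EV (4.88%) and 1 was called lower in mOC (2.44%), close to or below the shares of all genes. As a sum, however, they took 1.25 and 1.32% of reads in EV, above the 0.964 to 1.095% in the cell libraries. Both EV libraries lay above all others in 13 of the 41, against 9.84% of all genes. Their median log2 fold change in EV was 0.22, against -0.13 over all genes. Pabpc1b, a poly(A)-binding protein, stood at 511 RPM in OB, 280 and 301 RPM in pOC, 209 and 225 RPM in mOC and 646 and 529 RPM in EV, with log2 fold changes of 0.88 (SE 0.15, adjusted p = 0.0258) in EV and -1.03 (SE 0.15, adjusted p = 0.00734) in mOC, lost under 6 and 4 of 15 alternatives. Its paralog pabpc1a stood at 2851 RPM in OB, 2711 and 2466 RPM in pOC, 3448 and 3105 RPM in mOC and 3925 and 4630 RPM in EV, a log2 fold change in EV of 0.56 (SE 0.12, adjusted p = 0.0439, lost under 10 of 15 alternatives). Pabpc1b was thus lowest in mOC, where pabpc1a lay above OB and pOC.

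Genes of ribosome biogenesis were highest in OB as a sum, at 0.410% of reads, against 0.241 and 0.282% in pOC, 0.211 and 0.255% in mOC and 0.300 and 0.347% in EV. Of 50 tested, 4 were lower in mOC (8%, against 6.79% of all genes) and 1 was lower in EV (2%, against 3.43%). The medians were -0.58 in mOC and 0.18 in EV, against -0.09 and -0.13 over all genes. Myc (ENSDARG00000007241), a transcription factor that activates ribosome genes, was called lower in both, and stood at 158 RPM in OB, 99.4 and 99.7 RPM in pOC, 50.1 and 43.7 RPM in mOC and 48.4 and 52.5 RPM in EV. The change of myc in EV was -0.83 on the log2 scale (SE 0.19, adjusted p = 0.0477, lost under 9 of 15 alternatives) and -0.97 in mOC (SE 0.19, adjusted p = 0.0206, lost under 6). Utp15, which works in the assembly of the small subunit, stood at 54.0 RPM in OB, 32.8 and 45.3 RPM in pOC, 18.4 and 25.1 RPM in mOC and 78.0 and 73.1 RPM in EV, and its log2 fold change in mOC was -1.29 (SE 0.25, adjusted p = 0.0209, lost under 5 of 15 alternatives). Among 7 genes listed for a 5' TOP motif or for binding new chains, 0 were called in EV and 2 were lower in mOC (28.6%, against 6.79% of all genes). Their medians were 0.40 in EV and -0.24 in mOC, against -0.13 and -0.09 over all genes. As a sum, the list took 0.314 and 0.398% of reads in EV, against 0.232 to 0.291% in the cell libraries. Both EV libraries lay above all others in 1 of the 7, against 9.84% of all genes.

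Mitochondrial ribosomal protein genes, which build the separate ribosome of the organelle, had their highest summed shares in mOC, while few of them were called. They summed to 1.71 and 1.88 times the OB share in mOC, against 1.04 and 1.29 times in EV and 1.27 and 1.103 times in pOC. Of 67 tested, 2 were higher in mOC (2.99%, below the 3.97% of all genes) and 0 lower, and 0 were higher and 1 was lower in EV (1.49%, against 3.43%). The medians were 0.51 in mOC and -0.10 in EV, against -0.09 and -0.13 over all genes. Both mOC libraries lay above every other library in 26 of the 67, against 10.8% of all genes, and in 0 of the 76 cytosolic members. Mrpl38 stood at 23.3 RPM in OB, 40.4 and 29.5 RPM in pOC, 58.7 and 71.7 RPM in mOC and 19.5 and 21.5 RPM in EV, with a log2 fold change in mOC of 1.32 (SE 0.25, adjusted p = 0.0194, lost under 4 of 15 alternatives). Mrpl37 had one of 0.97 (SE 0.24, adjusted p = 0.0467, lost under 9).

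**Figure D5:**
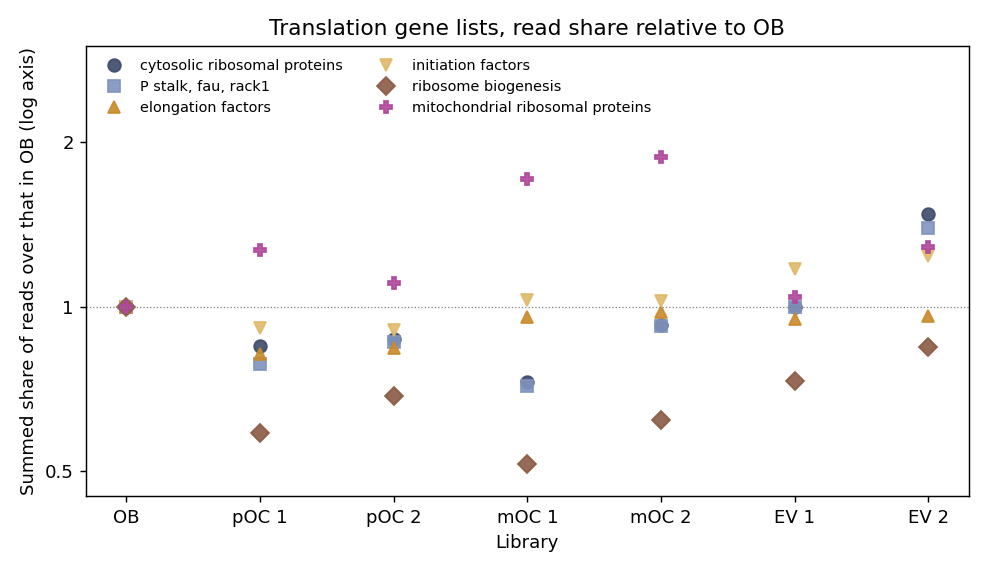
Summed share of reads of 6 gene lists in each library over that in OB (log axis). Cytosolic ribosomal proteins reached 1.48 times the OB share in EV replicate 2 and mitochondrial ribosomal proteins 1.71 and 1.88 times in mOC, while ribosome biogenesis genes lay below OB in all other libraries.

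Other features moved with the same libraries, and their part in the results was not tested. The summed share of 6 melanophore marker IDs was 0.0894% in EV replicate 2, 0.00569% in EV replicate 1 and at most 0.00303% in the cells. The 4 iridophore markers summed to 0.0586 and 0.0814% in EV and 0.00222 to 0.0243% in the cells. In EV, 1 of 5 tested melanophore and 2 of 4 iridophore markers were called higher, against 3.53% of all genes. In mOC, 2 iridophore markers were called lower and 1 higher, against 6.79% and 3.97% of all genes. Xanthophore markers summed to 0.162 and 0.148% in mOC, 0.0981 and 0.110% in pOC, 0.0073% in OB and 0.0296 and 0.0294% in EV. Of 7 tested, 4 were called higher in mOC (57.1%, against 3.97% of all genes) and 2 lower in EV (28.6%, against 3.43%). Macrophage markers summed to 0.0217 and 0.0242% in mOC, 0.0237% in OB, 0.0552 and 0.0580% in pOC and 0.0262 and 0.0429% in EV. Of 11 tested, 5 were called lower in mOC (45.5%, against 6.79% of all genes) and 1 higher (9.09%, against 3.97%). In EV 1 was called higher (9.09%, against 3.53%). The gene csf1ra was on both the xanthophore and the macrophage list, so the sums and counts of these lists overlap. Of 5 erythrocyte marker IDs, hbaa2 and 1 slc4a1 ID were at 0 in every library, and all 5 were at 0 in EV. Keratinocyte markers summed to 1.84% in OB, 1.57 and 1.71% in pOC, 1.45 and 1.80% in mOC and 1.67 and 1.19% in EV. They were thus lowest in EV replicate 2, and 0 of 7 tested were called in EV or mOC. Reads of hsp70 genes took 3.27 and 4.62% in EV against 6.81 to 9.16% in the cells. With the genes of most reads left out of the total (15 genes, the 10 of most reads in any library), the members took 4.95% of reads in OB, 3.97 and 4.15% in pOC, 3.43 and 4.38% in mOC and 4.48 and 6.78% in EV, so that EV replicate 1 then lay below OB.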

How the data were processed

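RNA of the sorted fractions was reverse transcribed with an oligo-dT primer and amplified by PCR (the Quartz-Seq method), and sequenced from Nextera XT libraries. HISAT2 2.1.0 (mapping, build GRCz11) and Subread 1.6.4 (RPM) are the tools that the authors name. The deposited RPM values are reads per 1000000 reads in genes, to 2 decimals. For the annotation release, strand setting and handling of reads that match several genes, the entry is: not given in the sources used here. PCR copies were not removed by molecular identifiers, so intervals cover counting error only.

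Symbols were matched for 28988 of 32057 IDs. Every RPM value was a whole multiple of 1 read within 0.005 RPM (100% of values), which gave the reads per gene. Genes of at least 1 RPM in at least 2 of 7 distinct libraries were fitted as log2(RPM + 1) with limma 3.58.1 (trend, robust, all 7 libraries, 3 residual degrees of freedom) in 6 contrasts. P-values were adjusted by Benjamini-Hochberg over 14006 genes, and a call is an adjusted p under 0.05. Shares have exact (Clopper-Pearson) 95% binomial intervals. edgeR 4.0.16 and DESeq2 1.42.0 on the recovered reads, quantile and TMM scaling, a pseudocount of 0.1, no filter, an ANOVA with a change over 2-fold, and leaving out libraries were alternatives. In the ANOVA a call was an unadjusted p under 0.05 together with a change over 2-fold. Genes with smaller changes could therefore not pass it. The fit was also run on simulated reads drawn independently for each gene. Because the members here move together between libraries, that run cannot vouch for the calls among them.

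Named members were the 10 of most reads, called members, the 3 furthest above and below the median per contrast at a mean of at least 20 RPM, members with paralogs, and rps27a and rps19bp1. Other genes were called genes of smallest p per list. Members and lists were chosen with earlier results of these data known. A few genes that these rules name are not reported here.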

Additional observations from a re-analysis of the deposited data

How the results depend on the processing

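The number of members called higher in EV, 1, was 0 with no filter, quantile normalization, TMM scaling, edgeR and the ANOVA, 14 with DESeq2, and 0 to 53 with 1 library left out (53 without EV replicate 1, 0 without EV replicate 2 or any pOC or mOC library). The number called lower in mOC, 0, was 1 without OB, with DESeq2 and with the ANOVA, and 0 to 32 with 1 library left out (32 without EV replicate 1, 5 without EV replicate 2). The number called higher in EV against OB, 0, was 0 to 16 with 1 library left out (16 without EV replicate 1). All other counts of called members were within 1.5 times the main count. The cause was not tested. With 1 library left out, the lone library of a fraction is assumed to vary like the others.

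The mean share of reads without the 10 genes of most reads was 4.95% in OB, 4.06% in pOC, 3.91% in mOC and 5.63% in EV. Without mitochondrially encoded genes it was 3.46% in OB and 2.998% in pOC, and without rpl3, rpl4 and rps2, a setting added after the data were seen, it was 2.01, 1.80, 1.63 and 2.65%. With 1 library left out the mean ran from 3.42 to 5.06% in EV, 2.49 to 3.17% in mOC and 2.90 to 2.98% in pOC.

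Values of members near 0 changed sign. In mOC, with quantile normalization, rps27a had 0.033, rpl13a 0.12, rpl12 0.13, rpl31 0.012, rps27.2 0.023 and rps27l 0.050. In mOC, with TMM scaling, rpl3 had 0.038, rpl13a 0.13, rpl12 0.096, rpl31 0.051 and rps27.2 0.046. In mOC, with edgeR, rpl3 had 0.041, rpl13a 0.12, rpl12 0.084, rpl31 0.048 and rps27.2 0.041. In mOC, with DESeq2, rpl3 had 0.041, rpl13a 0.12, rpl12 0.084, rpl31 0.048 and rps27.2 0.041. With 1 library left out, rpl3 ran from -0.29 to 0.072, rpl13a from -0.083 to 0.048, rpl12 from -0.17 to 0.079 and rps27.2 from -0.21 to 0.014 in mOC. In EV, with quantile normalization, rps13 had -0.012. With 1 library left out, rpl3 ran from -0.035 to 0.36, rpl6 from -0.010 to 0.97, rps13 from -0.096 to 0.35 and rps3 from -0.078 to 0.55 in EV. In EV against OB, with quantile normalization, rps3 had -0.23. In EV against OB, with TMM scaling, rpl3 had 0.069. In EV against OB, with edgeR, rpl3 had 0.095. In EV against OB, with DESeq2, rpl3 had 0.032. In EV against OB, with the replicate block, rpl3 had 0.13 and rps13 0.055. With 1 library left out, rpl3 ran from -0.22 to 0.18, rps13 from -0.43 to 0.013 and rps3 from -0.30 to 0.33 in EV against OB. In mOC against pOC, with quantile normalization, rpl3 had -0.16. With 1 library left out, rpl3 ran from -0.078 to 0.28 in mOC against pOC. In OB, with the replicate block, rpl6 had -0.11. Quantile normalization moved the median of all genes in EV from -0.13 to 0.02, and TMM scaling moved that in mOC from -0.09 to 0.02.

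Replicate numbers were not taken to pair the libraries, since no label says what a number marks and only 2 numbers are shared. Deviations of same-numbered libraries correlated at 0.17 for pOC and mOC, 0.07 for pOC and EV and 0.07 for mOC and EV over 14006 genes, and at 0.22, 0.15 and 0.27 over the 76 members. With the replicate block 1 member was called higher in EV, but a different gene: rps2 passed (adjusted p = 0.0338) and rpl11 did not (adjusted p = 0.0524). The block called 0 members lower in mOC, and its shares of all genes are not given here.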
